A study of Mus musculus with 29 samples.

Results

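The Serpin genes are the mouse family of serine protease inhibitors, and here they were taken as every non-control row of the arrays whose gene name starts with Serpin, leaving out Serpinb1a. The rule found 61 genes on 77 probes and 86 spots, among 31693 genes on 39429 probes. A filter on dim probes kept 39 of the 61 Serpin genes, among 19463 genes tested in all, so the counts below are over those 39 genes and not over the family. Liver RNA was hybridised from male C57BL/6N mice that were 3 months old when the diets began and had eaten chow until then. For 7 weeks the mice ate a high-fat diet made with corn oil (cHF), with both additions (cHF+PC+R, 8 arrays), with omega-3 phospholipids alone (cHF+PC, 8 arrays), with rosiglitazone alone (cHF+R, 6 arrays) or with neither (cHF, 7 arrays). In the PC diets about 7% of the dietary lipids was replaced by a concentrate of EPA and DHA carried as phospholipids rich in phosphatidylcholine. Rosiglitazone, the low-dose drug of the R diets, is a thiazolidinedione that activates the nuclear receptor PPARγ, and the comparisons ask what each addition changes and whether both together differ from one alone. Each 2-colour array set 1 liver (Cy5) against a common pool of liver RNA (Cy3), so every value below is a log2 ratio of a liver to that pool, and differences between groups are log2 changes.

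A serpin inhibits its protease by offering a reactive loop as bait, which the protease cuts and to which it then stays bound in a dead complex. Hepatocytes make most serpins of blood plasma, among them the inhibitors of elastase, thrombin, plasmin and C1, and some members of the family have no protease to inhibit and carry hormones or fold collagen. Clade A holds secreted serpins, clade B holds serpins that mostly stay inside the cell, and clades C to I are single genes or small groups. In the mouse the Serpina1 and Serpina3 genes are arrays of close copies, where human has a single gene of each kind.

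Clade A passed the filter for 21 of 24 genes, clades C to I for 8 of 11 and clade B for 10 of 26. The 22 untested genes included Serpina5, Serpina3a, Serpini1 and Serpinb2, and none of them was above background on more than 4 arrays. Serpinb6d and Serpinb9e lay just inside the filter, above background on 6 arrays each, and Serpinb9f lay just outside, on 4. Of the 39 tested genes, 20 had their probe on chromosome 12 (mm9), in 1 run from Serpina10, whose probe starts at 104854887, to Serpina3n, whose probe ends at 105651977. Along that run the order was Serpina10, Serpina6, Serpina1f, Serpina1d, Serpina1a, Serpina1c, Serpina1e, Serpina11, Serpina9, Serpina12, Serpina4-ps1 and then 9 Serpina3 genes. Chromosome 13 held 7 tested genes and chromosome 1 held 5, most of them clade B.

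The Serpina1 probes are shown because they decide which copy a Serpina1 value can be given to. The lines give 30 matched bases of 1 probe each for Serpina1a (the probe at chr12:105091819-105091878), Serpina1c (chr12:105133165-105133224) and Serpina1e (chr12:105185172-105185231, a second probe of that gene), mm9, minus strand, with capitals at bases that differ from both other lines.
Serpina1a: taaAatgtcatccttccttctgaattgggt
Serpina1c: taagatgtcatccttccttctgaattgggt
Serpina1e: taagaAgtcatccttccttctgaattgggt
The Serpina1a and Serpina1c stretches were equal at 29 of 30 bases, those of Serpina1a and Serpina1e at 28, and those of Serpina1c and Serpina1e at 29. The stretches were lined up on bases that the probes share, so their likeness was partly set by that choice. The other bases of the probes were not compared. The annotation of the Serpina1c probe also lists transcripts of Serpina1a, Serpina1b and Serpina1e, and no probe carried the name Serpina1b. A value given below to Serpina1a or Serpina1c may therefore hold RNA of another copy.

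The copies are also alike upstream. The lines give the bases before the annotated start of 4 Serpina1 genes from RefSeq (GRCm38.p6, minus strand): Serpina1a at chr12:103863620-103863739, Serpina1c at chr12:103904951-103905076, Serpina1d at chr12:103773634-103773748 and Serpina1e at chr12:103956940-103957074, with capitals for the longest run that all 4 share. The Serpina1e line stops 42 bases before the annotated start and the others end at it.
Serpina1a: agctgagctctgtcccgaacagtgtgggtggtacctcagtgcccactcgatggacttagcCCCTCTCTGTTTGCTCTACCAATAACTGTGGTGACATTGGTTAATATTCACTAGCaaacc
Serpina1c: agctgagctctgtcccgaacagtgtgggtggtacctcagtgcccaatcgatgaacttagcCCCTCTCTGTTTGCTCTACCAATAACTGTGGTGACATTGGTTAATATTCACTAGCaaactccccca
Serpina1d: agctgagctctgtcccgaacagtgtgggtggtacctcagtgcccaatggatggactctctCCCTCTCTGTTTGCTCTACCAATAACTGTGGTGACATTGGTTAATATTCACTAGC
Serpina1e: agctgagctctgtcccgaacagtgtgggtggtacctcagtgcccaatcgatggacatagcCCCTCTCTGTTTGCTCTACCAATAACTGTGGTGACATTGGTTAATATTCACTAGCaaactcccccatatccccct
The shared run is 55 bases long and was found in 5 of 32851 promoters, those of Serpina1a, Serpina1b, Serpina1c, Serpina1d and Serpina1e. It holds GTTAAT, the core of the site of HNF1, a transcription factor of hepatocytes. Searched on both strands of the 250 bases before each start, GTTAAT was in 8 of the 30 tested Serpin genes that have a promoter entry and in 6.43% of all promoters. The 8 include Serpina1a, Serpina1c, Serpina1d and Serpina1e, which share it in that run and are not separate cases. Here and below a Serpin gene counts once if any of its promoters matched, while the percentages count promoters. TTGCNNAA, the C/EBP site, was in 8 of the 30 and in 9.56% of all promoters, and TTCNNNGAA, the STAT site, was in 6 and in 7.02%. The direct repeat of AGGTCA spaced by 1 base, the kind of site that PPARs bind, was in 0 of the 30 and in 0.0335% of all promoters, while AGGTCA alone, which that repeat contains, was in 9 and in 14.0%. TATAAA, the TATA box, was in 7 and in 12.4%. These are matches of letters and no measure of binding.

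The Serpinb8 probe is shown because of what it is made of. The line gives 30 of its 60 bases (chr1:109504865-109504924, mm9, plus strand), with capitals for runs of TG.
Serpinb8: aTGTGTGTGTGTGTGcctcTGTGTGTGTGt
The whole probe holds 19 TG pairs. Of the 39429 probes 13, itself included, hold at least as many (0.033%), and the median is 5.

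In the series as a whole, cHF replicate 4 stood apart, with 80.8% of its spots well above background, against 55.0% to 62.5% on the other arrays, and it was kept. Hepatocyte markers were measured for 8 of 8 genes. Adipocyte markers were measured for 4 of 7, with Adipoq, Plin1 and Lep too dim to test. RNA from a whole liver cannot tell fewer cells of a type from less RNA per cell. The number of arrays sets the precision of each change.

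Both additions together changed 5 of the 39 Serpin genes against cHF: Serpina12, Serpina1a and Serpina1c fell, and Serpina6 and the dim Serpinb1c rose (limma, Benjamini-Hochberg adjusted p under 0.05 over all 19463 genes). With arrays centred on their medians in place of loess, 1 of the 5, Serpina12, was called. That setting called 82 of all 19463 genes, against 1850 with loess. Over all genes 9.51% were called in this comparison, 4.74% higher and 4.76% lower, and the 5 Serpin genes are 12.8% of the 39 tested. That count takes Serpina1a and Serpina1c apart, though their probes may share RNA. Serpinb1c passed the filter on dim probes mainly through the rosiglitazone groups, which held 7 of the 8 arrays where it was above background, so its call gives no support to the count; without it 4 of 38 were called. The median log2 change of the 39 genes was -0.03, with 16 above 0 and 23 below, and the median of all genes was 0.011. Of the 8 hepatocyte markers Ttr fell (-0.59) and Cps1 rose (0.53) in the same comparison, and their mean log2 ratio ran from 0.018 to 0.45 in cHF+PC+R livers, against -0.15 to 0.34 in cHF livers. None of the 4 adipocyte markers was called, and their mean ran from -2.70 to 1.48 in cHF+PC+R livers, against -2.52 to -1.43 in cHF livers. The part of these markers in the Serpin results was not tested.

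Serpina12 encodes vaspin, a secreted serpin named from visceral fat whose human protein inhibits kallikrein 7 and which is studied for its link to insulin sensitivity. It lies between Serpina9 and Serpina4-ps1 on chromosome 12 (chr12:105267099-105267158, mm9, minus strand), and the first bases of its probe are printed because it has the largest change among the called Serpin genes.
Serpina12: gtacaatattttcccaggatagttaacaag
Its lowest, median and highest log2 ratios were -1.07, -0.42 and 0.07 in cHF+PC+R, -1.09, -0.32 and 0.10 in cHF+PC, -0.42, 0.28 and 0.67 in cHF+R, and 0.15, 0.60 and 0.73 in cHF. All cHF+PC+R and all cHF+PC livers lay below every cHF liver, while the cHF+R livers spanned both. The change against cHF was -0.94 ± 0.16 (SE) in cHF+PC+R, 1.92-fold lower, with an adjusted p of 0.000426, and all 7 slides that held both groups had the lower value in cHF+PC+R. In cHF+PC it was -0.91 ± 0.16, 1.87-fold lower, with an adjusted p of 0.00160 and the same direction on 7 of 7 slides. The signal was dim: it was well above background on 7 of 8 cHF+PC+R, 6 of 8 cHF+PC, 6 of 6 cHF+R and 7 of 7 cHF arrays. With the scanner software's processed signals in place of model-based background correction, the changes of Serpina12 were -2.05 in cHF+PC+R and -2.13 in cHF+PC, and with arrays centred on their medians the cHF+PC change was -1.04 (adjusted p 0.0538).

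The next gene on the chromosome, Serpina4-ps1, is annotated as a pseudogene of the kallistatin gene and did not pass the threshold. Its log2 ratios were -2.13, -0.93 and 0.72 (lowest, median, highest) in cHF+PC+R, -1.91, -1.18 and 0.10 in cHF+PC, -0.70, 0.22 and 1.27 in cHF+R, and -0.97, 0.11 and 1.30 in cHF. The groups overlapped widely. The change against cHF was -1.0 (adjusted p 0.0855) in cHF+PC+R and -1.17 ± 0.37 (adjusted p 0.0707) in cHF+PC. It came below the threshold in cHF+PC when cHF replicate 7 (adjusted p 0.0414), cHF+PC replicate 3 (0.0448) or cHF+PC+R replicate 4 (0.0495) was left out. Deviations of Serpina12 and Serpina4-ps1 from their group means had r = 0.40 over 29 arrays, and those of Serpina12 and Serpina9, its other neighbour, r = 0.075.

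Serpina6 encodes corticosteroid-binding globulin, the serpin that carries glucocorticoids in plasma and inhibits no protease. Its log2 ratios were -0.24, -0.0015 and 0.26 in cHF+PC+R, -0.44, -0.17 and 0.39 in cHF+PC, -0.50, -0.29 and -0.02 in cHF+R, and -0.72, -0.46 and -0.23 in cHF. The lowest cHF+PC+R liver lay just below cHF replicate 4, and apart from that pair every cHF+PC+R liver lay above every cHF liver. The change was 0.47 ± 0.10 in cHF+PC+R against cHF, 1.38-fold higher (adjusted p 0.00464, higher on 7 of 7 slides), and 0.35 ± 0.10 in cHF+PC against cHF (adjusted p 0.0539). A second probe of Serpina6 at chr12:104886817-104886876 gave 0.58 in cHF+PC+R (adjusted p over all probes 0.00129) and 0.46 in cHF+PC (0.0168), and deviations of the probes from group means had r = 0.95 over 29 arrays. With the gene's main probe, the cHF+PC change passed the threshold in 5 of 12 other settings, with adjusted p from 0.0318 to 0.9999 over them.

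**Figure D1:**
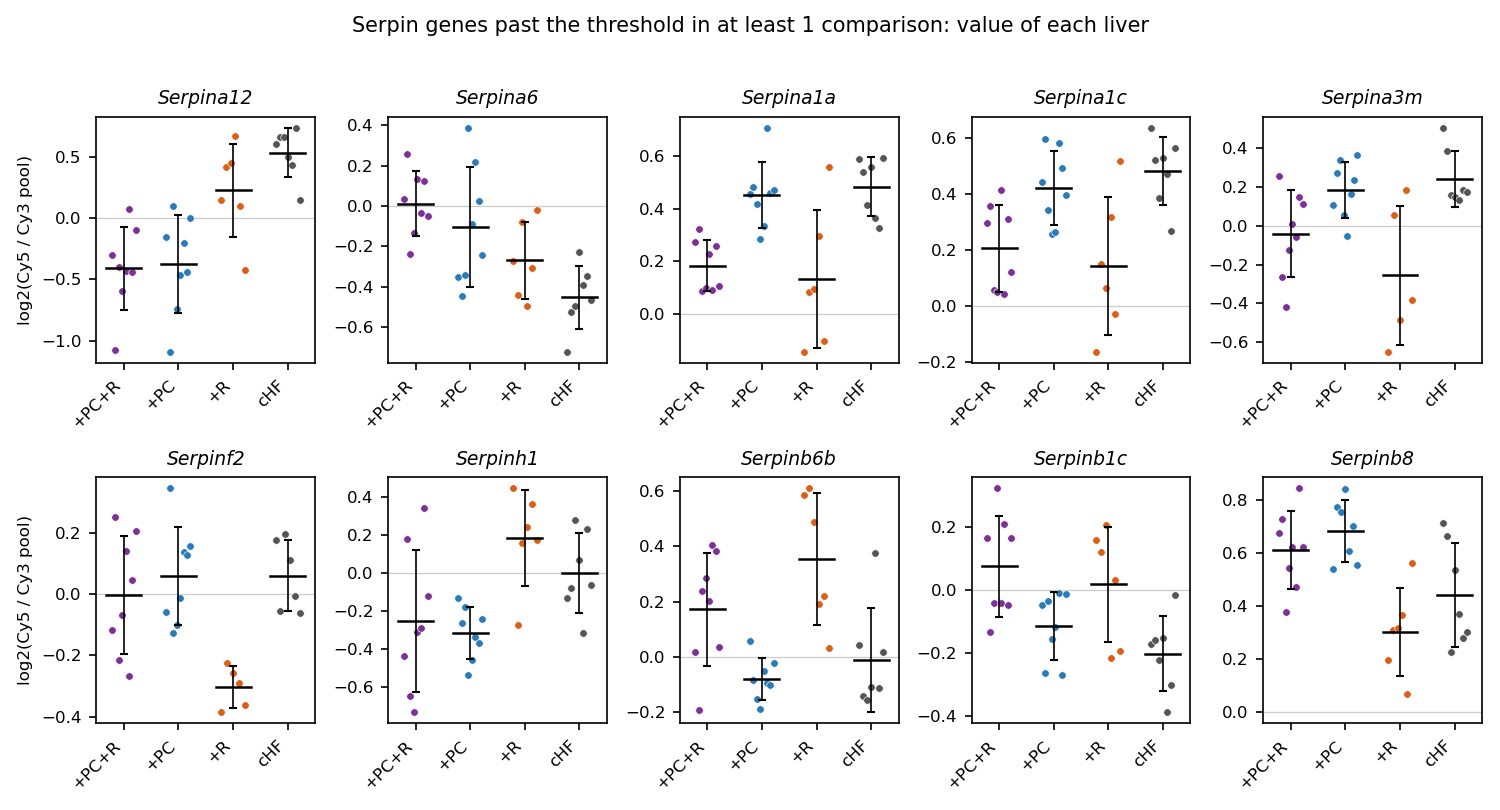
Log2 ratio to the common pool in every liver (points) for the 10 Serpin genes past the threshold in at least 1 comparison, with the mean and SD of each group; groups run cHF+PC+R, cHF+PC, cHF+R, cHF from left to right. Serpina12 lies below every cHF liver in all cHF+PC+R and cHF+PC livers. Serpinf2 in the 5 cHF+R livers with a value lies below the 6 cHF livers with a value. With outlier-marked spots kept, its cHF+R change was -0.24 (limma adjusted p 0.198).

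Serpina1a and Serpina1c encode mouse alpha-1 antitrypsins, the plasma inhibitors of neutrophil elastase, and both fell in cHF+PC+R and in cHF+R against cHF, although the sign in cHF+R turned when arrays were centred on their medians. Log2 ratios of Serpina1a were 0.09, 0.17 and 0.32 in cHF+PC+R, 0.28, 0.46 and 0.70 in cHF+PC, -0.14, 0.09 and 0.56 in cHF+R, and 0.33, 0.54 and 0.59 in cHF. Every cHF+PC+R liver lay below every cHF liver, and cHF+R replicate 6 was the 1 cHF+R liver within the cHF range. The change against cHF was -0.30 ± 0.077 in cHF+PC+R, 1.23-fold lower (adjusted p 0.0123, lower on 7 of 7 slides), and -0.35 ± 0.082 in cHF+R, 1.28-fold lower (adjusted p 0.0131, lower on 5 of 5 slides). Centring each array on its median in place of loess gave 0.049 in cHF+R (adjusted p 0.931), where the median of all genes was itself 0.15, so that Serpina1a lay 0.10 below it. The Cy5 signal alone, quantile-scaled, gave -0.096 (adjusted p 0.309) in cHF+PC+R and -0.047 (0.826) in cHF+R. The Serpina1a spot was saturated on 2 of 8 cHF+PC and 1 of 6 cHF+R arrays and on none in cHF+PC+R and cHF, so those spots' Cy5 signals are lower bounds. A second probe named Serpina1a gave -0.16 (adjusted p over all probes 0.50) in cHF+PC+R and -0.18 (0.598) in cHF+R.

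Serpina1c followed closely, and deviations of Serpina1c and Serpina1a from group means had r = 0.91 over 29 arrays. Its log2 ratios were 0.04, 0.21 and 0.41 in cHF+PC+R, 0.26, 0.42 and 0.59 in cHF+PC, -0.16, 0.11 and 0.52 in cHF+R, and 0.27, 0.52 and 0.63 in cHF. The cHF+PC+R and cHF+R groups each overlapped the cHF group. The change against cHF was -0.28 ± 0.082 in cHF+PC+R, 1.21-fold lower (adjusted p 0.030, lower on 6 of 7 slides), and -0.34 ± 0.088 in cHF+R, 1.26-fold lower (adjusted p 0.0270, lower on 5 of 5 slides). With the slide as a block the adjusted p was 0.0574 in cHF+PC+R and 0.0628 in cHF+R, and the cHF+R change was 0.058 under median centring and -0.081 with the Cy5 signal alone. Leaving out cHF replicate 1, 4 or 7 or cHF+PC+R replicate 3, 4 or 6 ended the cHF+PC+R call (adjusted p up to 0.0646), and leaving out cHF replicate 1, 2, 4 or 7 or cHF+R replicate 1, 3 or 5 ended the cHF+R call (up to 0.0907).

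The other tested Serpina1 copies were not called. Serpina1d had medians of 0.19 in cHF+PC+R, 0.34 in cHF+PC, -0.02 in cHF+R and 0.24 in cHF, and changes of -0.058 in cHF+PC+R (adjusted p 0.80) and -0.20 in cHF+R (0.434). Serpina1e, for the probe used, changed by -0.22 ± 0.18 in cHF+PC+R (adjusted p 0.475) and 0.13 ± 0.18 in cHF+R (0.804), and spread more than the others, with cHF+R livers from -0.12 to 1.26, of which 1 was saturated. The second Serpina1e probe, the one printed above, gave -0.33 (adjusted p over all probes 0.0812) in cHF+PC+R and -0.11 (0.752) in cHF+R, so the probes differed in sign in cHF+R. Serpina1d and Serpina1e lacked a value on cHF replicate 7 and cHF+PC replicate 8, both on slide 8, where the scanner software marked their spots as outliers.

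Serpinb1c, a mouse relative of the intracellular elastase inhibitor SERPINB1, rose with both additions. Its log2 ratios were -0.13, 0.06 and 0.32 in cHF+PC+R, -0.27, -0.08 and -0.0090 in cHF+PC, -0.21, 0.08 and 0.21 in cHF+R, and -0.39, -0.17 and -0.02 in cHF. The groups overlapped, and the signal was well above background on 4 of 8 cHF+PC+R, 0 of 8 cHF+PC, 3 of 6 cHF+R and 1 of 7 cHF arrays. The change in cHF+PC+R against cHF was 0.28 ± 0.072 (adjusted p 0.0134, higher on 7 of 7 slides), a difference between signals mostly at background that gives no fold, and with the scanner software's processed signals it was 0.93.

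**Figure D2:**
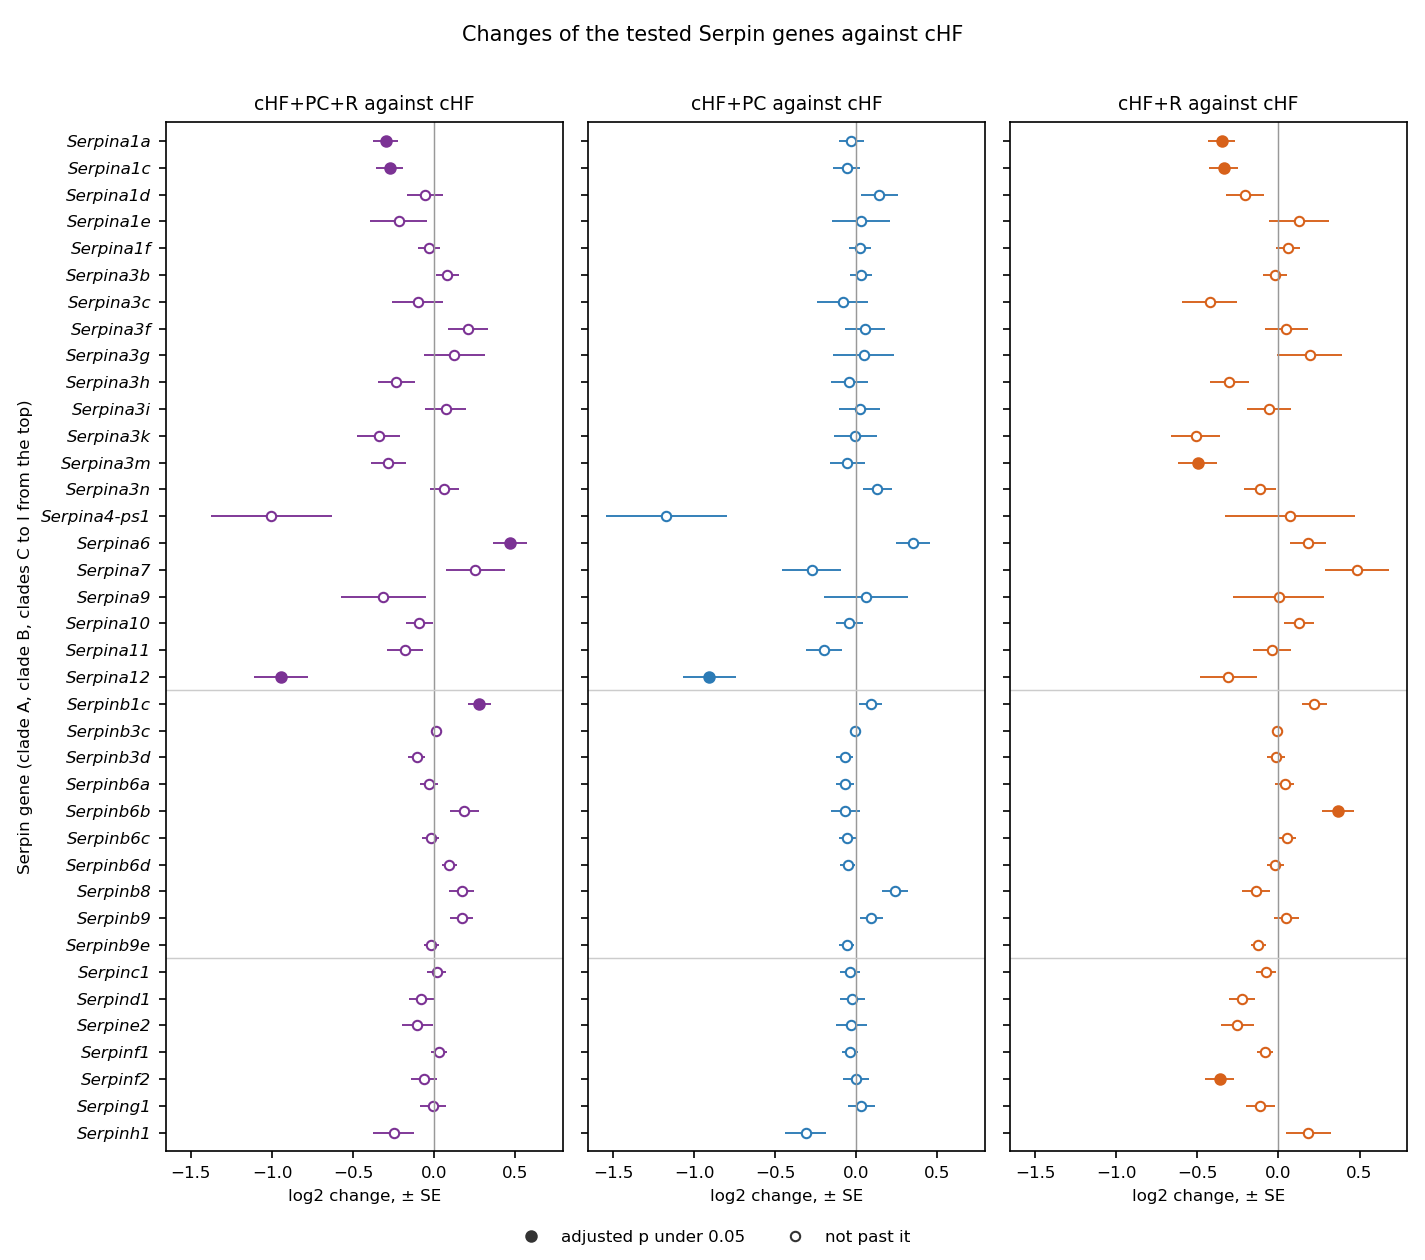
Log2 change with its SE against cHF for 38 of the 39 tested Serpin genes, in cHF+PC+R, cHF+PC and cHF+R panels from left to right; filled points have an adjusted p under 0.05 and horizontal lines part clade A, clade B and clades C to I. Filled points number 5 in the cHF+PC+R panel, 1 in the cHF+PC panel and 5 in the cHF+R panel, and the Serpina1a and Serpina1c points of the cHF+R panel turn positive, to 0.049 and 0.058, when arrays are centred on their medians.

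The phospholipids alone changed 1 of the 39 Serpin genes against cHF, Serpina12, as given above, which is 2.56% of those tested. Over all genes 3.93% were called, 1.82% higher and 2.11% lower. The median log2 change of the 39 genes was -0.03, with 15 above 0 and 24 below, and that of all genes was 0.00087. In the same comparison Ttr (-0.50) among the 8 hepatocyte markers and Lrat (-0.49) among the 8 markers of stellate cells fell, and their part in the Serpina12 result was not tested. After Serpina12, Serpina6 and Serpina4-ps1 had the smallest p. Without cHF replicate 4 and cHF+R replicate 6, the 2 arrays doubted here, 2 Serpin genes were called, with Serpina6 at 0.39 (adjusted p 0.0408). Of all 19463 genes 675 were called there.

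Rosiglitazone alone changed 5 of the 39 Serpin genes against cHF: Serpina1a, Serpina1c, Serpina3m and Serpinf2 fell, and Serpinb6b rose. With arrays centred on their medians none of the 5 was called and the first 2 were above 0. That setting called 81 of all 19463 genes, against 607 with loess. Of all genes 3.12% were called, 2.02% higher and 1.09% lower, and the 5 are 12.8% of the Serpin genes tested. Here too Serpina1a and Serpina1c are counted apart, though their probes may share RNA. The median of the 39 log2 changes was -0.02, with 16 above 0 and 23 below, and that of all genes was 0.014. Of the 4 adipocyte markers measured, 3 rose in the same comparison: Cfd by 4.51, Fabp4 by 1.27 and Retn by 0.65 on the log2 scale. Adipoq, Plin1 and Lep, also on that list, were above background on at most 2 arrays and were not tested. The mean log2 ratio of the 4 measured adipocyte markers ran from -1.47 to 2.15 in cHF+R livers, against -2.52 to -1.43 in cHF livers. The 8 hepatocyte markers were all below 0 with none past the threshold, with a median change of -0.18 and a mean log2 ratio of -0.33 to 0.20 in cHF+R livers, against -0.15 to 0.34 in cHF livers. Their part in the Serpin results was not tested.

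Serpina3m and Serpina3k belong to the mouse Serpina3 copies, relatives of human alpha-1 antichymotrypsin. Serpina3m had log2 ratios of -0.42, -0.02 and 0.26 in cHF+PC+R, -0.05, 0.20 and 0.37 in cHF+PC, -0.65, -0.38 and 0.19 in 5 cHF+R livers, and 0.13, 0.17 and 0.50 in cHF. The highest cHF+R liver reached into the cHF range and the other 4 lay below every cHF liver. The change in cHF+R against cHF was -0.50 ± 0.12, 1.41-fold lower (adjusted p 0.0177, lower on 4 of 4 slides), and leaving out cHF+R replicate 1, 3 or 5 ended the call (adjusted p up to 0.0800). Median centring gave -0.11 (adjusted p 0.856). Serpina3k had medians of 0.02 in cHF+PC+R, 0.45 in cHF+PC, -0.11 in cHF+R and 0.45 in cHF, with changes of -0.34 (adjusted p 0.104) in cHF+PC+R and -0.51 ± 0.15 (adjusted p 0.0595) in cHF+R. Neither had a value on cHF+R replicate 6, where both spots were marked as outliers. Missing Serpin values lay mostly on the slide of that array, slide 8. Of 39 values, cHF+R replicate 6 kept 36, cHF replicate 7 kept 35, cHF+PC replicate 8 kept 34 and cHF+PC+R replicate 8 kept 38. Arrays of the other slides kept 38 or 39. The cause was not tested.

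Other Serpina3 genes showed no call. Serpina3c had medians of -0.14 in cHF+PC+R, 0.05 in cHF+PC, -0.29 in cHF+R and 0.10 in cHF; all 6 cHF+R livers lay below all 7 cHF livers, and the change of -0.42 had an adjusted p of 0.204. The spread that the test shares over groups included cHF+PC+R replicate 8, at 1.38. The part of that liver in the adjusted p was not tested. Serpina3n, an inhibitor of granzyme B and other proteases that rises in the acute phase response, changed by -0.11 in cHF+R (adjusted p 0.642) and 0.062 in cHF+PC+R (0.732). Serpina3g, a Serpina3 copy that acts inside blood cells, changed by 0.19 (0.713) and 0.12 (0.737) in the same comparisons.

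Serpinf2 encodes alpha-2 antiplasmin, the main inhibitor of plasmin, the protease that dissolves fibrin clots. Its probe lies at chr11:75245252-75245311 (mm9, minus strand). Log2 ratios were -0.27, -0.01 and 0.25 in cHF+PC+R, -0.13, 0.06 and 0.34 in cHF+PC, -0.38, -0.29 and -0.22 in 5 cHF+R livers, and -0.06, 0.05 and 0.19 in 6 cHF livers. These 5 cHF+R and 6 cHF livers did not overlap. The change in cHF+R against cHF was -0.36 ± 0.088, 1.29-fold lower (adjusted p 0.0187, lower on 4 of 4 slides). The spots on cHF+R replicate 6 and cHF replicate 7, both on slide 8, had been marked as outliers. With such spots kept the change was -0.24 (adjusted p 0.198). It was -0.083 (0.788) with the Cy5 signal alone, -0.091 (0.875) with median centring and -0.22 (0.248) in the authors' deposited value table. Leaving out cHF+R replicate 1 gave an adjusted p of 0.0546.

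Serpinb6b, an intracellular clade B serpin close to the cathepsin G inhibitor SERPINB6, had log2 ratios of -0.19, 0.22 and 0.41 in cHF+PC+R, -0.19, -0.09 and 0.06 in cHF+PC, 0.03, 0.35 and 0.61 in cHF+R, and -0.16, -0.11 and 0.38 in cHF. Apart from cHF replicate 5, at 0.38, the cHF livers reached no higher than 0.043. The change in cHF+R against cHF was 0.37 ± 0.097, 1.29-fold higher (adjusted p 0.0301, higher on 5 of 5 slides). Leaving out cHF replicate 2, 3, 4 or 6 or cHF+R replicate 1, 2 or 3 ended the call (adjusted p up to 0.0900). Its neighbour in the family Serpinb6a, the mouse counterpart of SERPINB6, changed by 0.037 ± 0.059 (adjusted p 0.823).

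Between both additions and rosiglitazone alone, 4 of the 39 Serpin genes differed: Serpinb8 and Serpinf2 were higher in cHF+PC+R, and Serpina12 and Serpinh1 were lower. With arrays centred on their medians none of the 4 was called, and Serpinf2 was below 0. That setting called 53 of all 19463 genes, against 1389 with loess. Of all genes 7.14% were called, 3.31% higher and 3.83% lower, and the 4 are 10.3% of the Serpin genes tested. The 4 include Serpinb8, whose TG-rich probe moved with TG-rich probes of other genes, as given below. Its call is that of a probe and gives no support to the count. The median log2 change was 0.069, with 24 of the 39 above 0 and 15 below, and that of all genes was -0.0054. Adipocyte markers moved here too: Cfd fell by 3.01 and Fabp4 by 1.15 on the log2 scale, and the list mean ran from -2.70 to 1.48 in cHF+PC+R livers, against -1.47 to 2.15 in cHF+R livers. Of the 8 hepatocyte markers Cps1 (0.56) and Pck1 (1.1) rose, and their mean ran from 0.018 to 0.45 in cHF+PC+R livers, against -0.33 to 0.20 in cHF+R livers. The part of these markers in the Serpin results was not tested.

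Serpina12 was lower by -0.64 ± 0.17 in cHF+PC+R than in cHF+R, 1.55-fold (adjusted p 0.0221, lower on 5 of 6 slides), and the groups overlapped. Leaving out cHF+R replicate 2, 3 or 4 ended this call (adjusted p up to 0.0662), and the scanner software's processed signals gave -1.56 (0.0723). Serpinf2 was higher by 0.30 ± 0.083, 1.23-fold (adjusted p 0.0273, higher on 5 of 5 slides), with 1 cHF+PC+R liver, at -0.27, inside the cHF+R range of -0.38 to -0.22. Its call also rested on the missing spot of cHF+R replicate 6: with outlier spots kept the change was 0.21 (adjusted p 0.181), median centring gave -0.0094, and leaving out cHF+R replicate 1 or 5 or cHF+PC+R replicate 2 or 5 ended the call (adjusted p up to 0.0822).

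Serpinh1 encodes HSP47, the collagen chaperone of the endoplasmic reticulum, a serpin with no known protease that is abundant in cells that make collagen. Its probe lies on chromosome 7 (chr7:106493971-106494030, mm9, minus strand). Log2 ratios were -0.73, -0.30 and 0.34 in cHF+PC+R, -0.53, -0.30 and -0.13 in cHF+PC, -0.27, 0.21 and 0.44 in cHF+R, and -0.32, -0.06 and 0.28 in cHF. The groups overlapped: cHF+PC+R replicates 2 and 7 were above 0, and cHF+R replicate 2 was the 1 cHF+R liver below 0. The change in cHF+PC+R against cHF+R was -0.44 ± 0.13, 1.35-fold lower (adjusted p 0.0420, lower on 5 of 6 slides). It lost its call without any one of cHF+R replicates 1, 3, 4 and 5 or cHF+PC+R replicates 1, 3, 4 and 5 (adjusted p up to 0.122). The call was also lost in 6 of 12 other settings, where the change stayed below 0. Among these, median centring gave -0.57 (adjusted p 0.682), Cy5 alone -0.43 (0.121) and the deposited value table -0.40 (0.0688). Among the 8 markers of stellate cells and fibroblasts, 1, Lrat, fell in the same comparison, by 0.58 on the log2 scale, and the list mean ran from -0.34 to 0.38 in cHF+PC+R livers, against -0.23 to 0.51 in cHF+R livers. Their part in the Serpinh1 difference was not tested.

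Serpinb8, an intracellular serpin whose human counterpart inhibits furin, had log2 ratios of 0.38, 0.62 and 0.84 in cHF+PC+R, 0.54, 0.70 and 0.84 in 7 cHF+PC livers, 0.07, 0.31 and 0.56 in cHF+R, and 0.23, 0.37 and 0.71 in cHF. All 4 groups overlapped. The change in cHF+PC+R against cHF+R was 0.31 ± 0.082, 1.24-fold higher (adjusted p 0.0209, higher on 6 of 6 slides), and in cHF+PC against cHF it was 0.24 (adjusted p 0.0971). Leaving out cHF+R replicate 1 or 5 ended the call (adjusted p 0.0628 and 0.0664), and the quantile-scaled Cy5 signal alone gave 0.72 (adjusted p 0.524). The other 12 tested probes with at least 19 TG pairs, named for 12 other genes, moved the same way: their median change was 0.35 (0.27 to 0.40) in cHF+PC+R against cHF+R and 0.20 (0.14 to 0.23) in cHF+PC against cHF. Their mean log2 ratio was 0.44 to 0.83 in cHF+PC+R livers, 0.50 to 0.81 in cHF+PC livers, -0.02 to 0.60 in cHF+R livers and 0.21 to 0.70 in cHF livers. Deviations of the Serpinb8 probe and of that mean from their group means had r = 0.95 over 28 arrays, so the Serpinb8 value is given here as that of its probe.

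**Figure D3:**
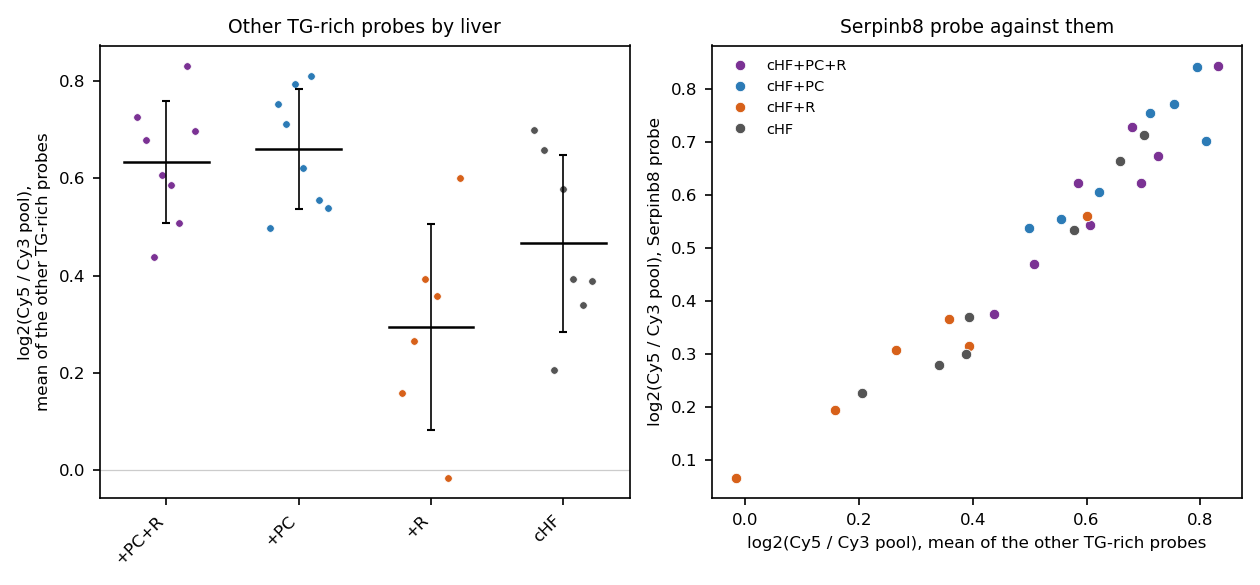
Left, mean log2 ratio of the 12 other tested probes with at least 19 TG pairs in every liver, with group means and SD, in the order cHF+PC+R, cHF+PC, cHF+R, cHF; right, the Serpinb8 probe (vertical axis, log2 ratio) against that mean (horizontal axis, log2 ratio), 1 point per liver. The Serpinb8 probe follows the other repeat probes across the 28 arrays with a value, with r = 0.95 for deviations from group means.

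Between both additions and the phospholipids alone, 0 of the 39 Serpin genes passed the threshold (limma), against 0.134% of all genes. An unadjusted p under 0.05 was found for 8 of the 39. The share of all genes at that cut was not counted, so the 8 are not read as an excess. The smallest p belonged to Serpina1a, at -0.27 ± 0.074 (adjusted p 0.176), where 2 of the 8 cHF+PC spots were saturated, followed by Serpinb6d at 0.15 (0.244) and Serpina7 at 0.53 ± 0.18 (0.32). The authors' deposited value table, tested in the same way, called Serpina1a at -0.33 (adjusted p 0.0461). Serpina7 encodes thyroxine-binding globulin, a hormone carrier, and had medians of 0.13 in cHF+PC+R, -0.40 in cHF+PC, 0.37 in cHF+R and -0.03 in cHF. Serpinb6d was above background on 0 of 8 cHF+PC+R and 3 of 8 cHF+PC arrays.

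The test of whether the phospholipids and rosiglitazone add on the log2 scale called 0 Serpin genes and 0% of all genes (limma). An unadjusted p under 0.05 was found for 4 Serpin genes, and the share of all genes at that cut was not counted. Serpinf2 had the smallest p, at 0.30 ± 0.11 (adjusted p 0.663), followed by Serpinb9e at 0.17 (0.671) and Serpinb6d at 0.16 (0.715). No difference between the response of a Serpin gene to rosiglitazone with and without the phospholipids was therefore shown. Serpina12 had a change of -0.31 ± 0.18 in cHF+R against cHF (adjusted p 0.433) and an interaction of 0.27 ± 0.24 (0.888).

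The remaining plasma serpins of the liver were not called in any of the 6 comparisons. Serpinc1, antithrombin, changed by 0.015 ± 0.058 (adjusted p 0.911) in cHF+PC+R, -0.040 ± 0.060 (0.778) in cHF+PC and -0.077 ± 0.062 (0.609) in cHF+R against cHF. Serpind1, heparin cofactor II, another thrombin inhibitor, changed by -0.080 (0.556), -0.025 (0.908) and -0.23 ± 0.081 (0.137) in the same order. Serping1, the C1 inhibitor of complement and kallikrein, changed by -0.0080 (0.967), 0.031 (0.888) and -0.11 (0.598). Without cHF replicate 4 and cHF+R replicate 6 the Serpind1 change in cHF+R was -0.30 (adjusted p 0.034). There 6 Serpin genes and 574 of all 19463 genes were called.

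Serpina10, the inhibitor of clotting factor X that works with protein Z, had medians of -0.0024 in cHF+PC+R, 0.10 in cHF+PC, 0.24 in cHF+R and 0.06 in cHF, with an adjusted p of 0.130 for cHF+PC+R against cHF+R. Serpine2, protease nexin-1, a thrombin inhibitor of tissues, changed by -0.10 (adjusted p 0.540), -0.032 (0.904) and -0.25 ± 0.10 (0.206) in cHF+PC+R, cHF+PC and cHF+R against cHF. Serpinf1, which encodes PEDF, a secreted serpin without protease inhibition, changed by 0.027 (0.789), -0.038 (0.719) and -0.082 (0.470).

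Serpina11, a secreted clade A serpin, changed by -0.18 (0.319), -0.20 (0.336) and -0.038 (0.925) in cHF+PC+R, cHF+PC and cHF+R against cHF. Serpinb9, the intracellular inhibitor of granzyme B, changed by 0.17 ± 0.070 (0.127), 0.093 (0.517) and 0.048 (0.821). Serpini1, neuroserpin, was above background on at most 2 arrays and was not tested.

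The Serpin genes differed widely in how far livers of a group lay apart. The SD within groups was 0.77 for Serpina4-ps1 and 0.54 for Serpina9, larger than for 99.8% and 99.2% of all tested genes, whose median SD was 0.11. Serpina3g (0.38), Serpina7 (0.38), Serpina1e (0.34) and Serpina12 (0.34) followed. Serpinc1 lay at 0.11 and Serpinf1 at 0.088. The Serpina4-ps1 probes, whose positions overlap, had r = 0.999 over 29 arrays for deviations from group means, so the spread was measured alike by both.

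The likeness of Serpin genes from liver to liver differed between pairs. The highest r of deviations from group means was 0.95, between Serpina3h and Serpina3m, followed by Serpinb6c with Serpinb6a (0.93), Serpina1c with Serpina1a (0.91), Serpina1e with Serpina1d (0.91), Serpina1d with Serpina1a (0.91), Serpina3g with Serpina3f (0.90), Serpina3i with Serpina3b (0.89) and Serpina3k with Serpina3m (0.88). Both probes named Serpina3f had only r = 0.24 with each other over 29 arrays, so the 0.90 is that of the probe used. Serpina3c and Serpina3i had r = 0.86. Without cHF+PC+R replicate 8, r was 0.49 for Serpina3i with Serpina3b and 0.23 for Serpina3c with Serpina3i, so both rest on that liver. Over all 741 pairs of tested Serpin genes the median r was 0.071 and the range -0.70 to 0.95, and over the 210 pairs within clade A the median was 0.15. Pairs share their arrays, and probes of close copies may also share target RNA.

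The liver of cHF+PC+R replicate 8 set several Serpina3 values. It had log2 ratios of 1.38 for Serpina3c, 1.07 for Serpina3i, 0.60 for Serpina3b and 0.59 for Serpina3n, each the highest of the group. Serpina3c and Serpina3n had r = 0.77 over 29 arrays and 0.46 over 28 without it. The bases before their starts are shown because this pair is also alike there, at chr12:104153885-104154028 (minus strand) for Serpina3c and chr12:104406549-104406692 (plus strand) for Serpina3n, RefSeq, GRCm38.p6, with capitals for the longest shared run, 64 bases, which was in 2 of all promoters. The lines stop 12 and 15 bases before the annotated start.
Serpina3c: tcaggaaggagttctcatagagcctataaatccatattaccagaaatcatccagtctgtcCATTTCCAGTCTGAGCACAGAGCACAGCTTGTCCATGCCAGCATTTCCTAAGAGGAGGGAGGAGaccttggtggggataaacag
Serpina3n: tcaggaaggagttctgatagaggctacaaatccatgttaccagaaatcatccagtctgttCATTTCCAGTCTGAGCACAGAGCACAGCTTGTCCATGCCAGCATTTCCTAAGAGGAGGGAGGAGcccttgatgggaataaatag

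**Figure D4:**
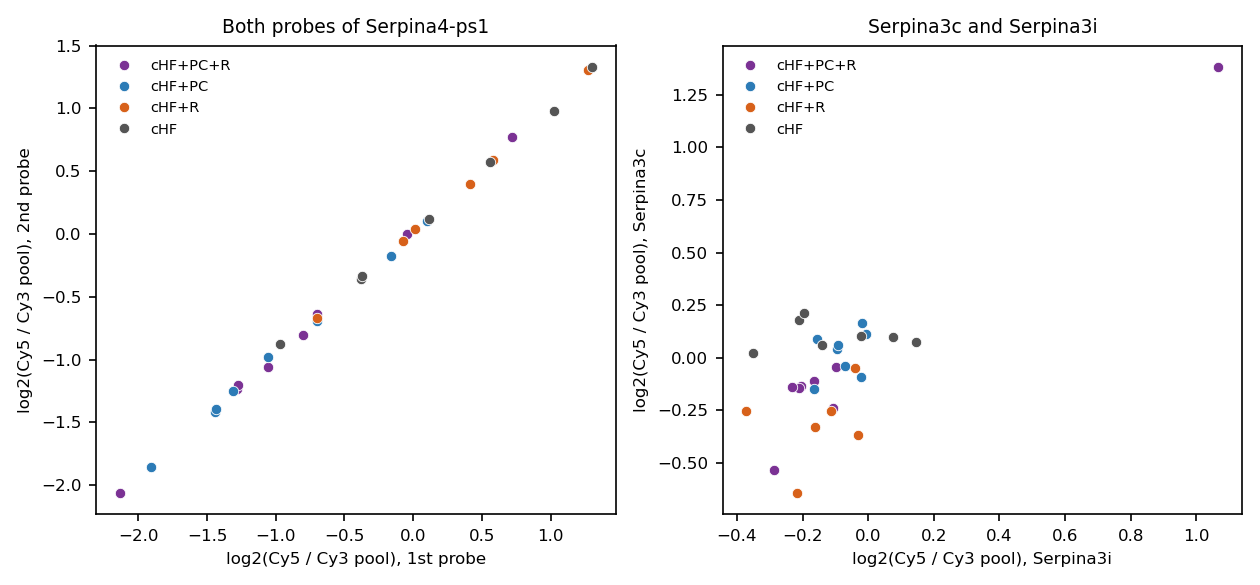
Left, log2 ratios from both Serpina4-ps1 probes, 1 on each axis; right, Serpina3c against Serpina3i, both as log2 ratios to the pool, with 1 point per liver marked by group. The Serpina4-ps1 livers spread from -2.13 to 1.33 over both probes, and cHF+PC+R replicate 8 lies apart at 1.38 for Serpina3c and 1.07 for Serpina3i.

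The proteases that serpins inhibit changed in part. Of 22 listed proteases 19 were measured. Prtn3 among them was dim, above background on at most 15 of the 29 arrays. In cHF+PC+R against cHF 1 rose (Prtn3, 0.13) and 3 fell (Hgfac, -0.48, Masp2, -0.17, and Cela1, -0.31), with a list median of 0.033. These 4 are 21.1% of the 19 measured, where 9.51% of all genes were called. Hgfac, the activator of hepatocyte growth factor, also fell in cHF+PC (-0.35), as did the elastase Cela1 (-0.30), and in cHF+R the 1 protease to fall was Proc, protein C (-0.26). Both comparisons that called Proc hold the same cHF+R livers. In cHF+PC+R against cHF+R, Proc (0.26), Hpn (0.21), F12 (0.18), F7 (0.23) and Prtn3 (0.13) rose and Hgfac fell by 0.27 on the log2 scale. These 6 are 31.6% of the 19, where 7.14% of all genes were called. In cHF+PC and cHF+R 2 and 1 of the 19 were called, where 3.93% and 3.12% of all genes were called. The lists here and below were chosen with earlier results of these data known and were counted with the main processing alone. Their shares are therefore not read as an excess. In cHF+PC+R against cHF+R, median centring called 53 of all genes, against 1389 with loess.

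Of 22 other secreted protease inhibitors 20 were measured. Hrg, the histidine-rich glycoprotein that binds plasminogen and heparin, rose in cHF+PC+R (0.40) and cHF+PC (0.42) against cHF. Tfpi2, a Kunitz inhibitor, fell in cHF+PC (-0.29) and rose in cHF+R (0.36), and Mug1, a murinoglobulin that traps proteases, fell in cHF+R (-0.55). In cHF+PC+R against cHF+R, Hrg (0.54), Mug1 (0.66), Mug2 (0.58) and Itih3 (0.45) rose and Tfpi2 (-0.55) fell, and the list median was 0.12. These 5 are 25% of the 20 measured, against 7.14% of all genes. The shares against cHF were 5% in cHF+PC+R, 10% in cHF+PC and 10% in cHF+R, where 9.51%, 3.93% and 3.12% of all genes were called.

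Of 17 acute phase proteins, all measured, Apcs rose (1.15) and Saa4 fell (-0.42) in cHF+R against cHF, and in cHF+PC+R against cHF+R Apcs fell (-1.19) and Saa4 rose (0.41). The 2 are 11.8% of the list in each comparison, where 3.12% and 7.14% of all genes were called. Among 6 receptors and cofactors of serpins, Lrp1, the receptor that clears serpin-protease complexes, rose in cHF+PC+R against cHF (0.33) and against cHF+R (0.34), and the others were not called. That is 16.7% of the list in each comparison, where 9.51% and 7.14% of all genes were called.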

How the data were processed

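Liver RNA of 29 samples, each given in the labels as 1 replicate of its diet, was measured on 2-colour Agilent arrays (8 slides, 1 scan day, at most 1 array of a group on a slide), with each liver in Cy5, a common pool in Cy3 and no dye swap. The deposited scanner files hold spot intensity values extracted by the authors with Agilent Feature Extraction 10.5.1.1, per the file headers and the submitters' processing notes. The authors' deposited value table holds log2 values with no normalization stated in those sources. Its columns have the same median (9.03), and 27 of 29 follow the log2 Cy5 intensity of their own array best. It was used as an alternative.

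From the intensity values, background was corrected by normexp (offset 50) and ratios were normalized by loess within each array, with control spots at weight 0 (limma 3.58.1, R 4.3.3). Outlier-marked spots were removed and spots of a probe averaged. Probes had to be well above background in Cy5 on 6 arrays and have values on 20. The probe of highest mean intensity stood for its gene. A model with 4 group means gave 6 comparisons, with Benjamini-Hochberg adjustment over 19463 genes and a threshold of 0.05. Fold changes are on the scale of these log2 ratios, which the offset draws towards 0 for dim probes. Gene names follow the files and a RefSeq table (GRCm38.p6). Promoters came from RefSeq for 51 of 61 members. The procedure was tested on simulated data.

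Of the tested members, 1 enters the counts and is otherwise not reported here. Members and gene lists were chosen with earlier results of these data known. The text names every member past the threshold, the 3 of smallest p where fewer than 3 passed, and fixed serpins of known role, and from each list those past the threshold. P-values measure the spread between the samples of a group. Replicate numbers were shared between groups. The r of deviations from group means had a median of 0.018 over 40 pairs of same-numbered arrays (-0.35 to 0.40) and -0.0059 over 274 others. For 9 of the 29 arrays the best-correlated array of another group had the same number. Replicate number was therefore left out of the main model and fitted as a block among the alternatives, without a claim that it has no part. Alternatives changed the background correction, scaling, filter, probe rule, block and arrays used. The 2 added after the values were seen kept outlier spots and left out cHF replicate 4 with cHF+R replicate 6.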

Additional observations from a re-analysis of the deposited data

Results flagged for a closer look

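Among 120 groups of 30 named Serpin genes, 5 held a liver far from the rest of its group by Dixon's test, where chance gives about 1 in 20. Serpina3c was at 1.38 in cHF+PC+R replicate 8, where the next liver was at -0.042 and the group median at -0.14. Serpina3n was at 0.59 in the same liver, with the next at 0.086 and the group median at -0.043. Serpina1a was at 0.70 in cHF+PC replicate 6, with the next at 0.48 and the median at 0.46. Serpinb6b was at 0.38 in cHF replicate 5, with the next at 0.043 and the median at -0.11. Serpinb6d was at -0.15 in cHF+PC replicate 5, with the next at -0.056 and the median at -0.0085. All are log2 ratios to the common pool.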

How the results depend on the processing

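Median centring of arrays in place of loess left 1 Serpin gene called in cHF+PC+R against cHF. It left 0 in cHF+PC against cHF, in cHF+R against cHF and in cHF+PC+R against cHF+R. Calls over all 19463 genes fell as well, in the same order, from 1850, 765, 607 and 1389 to 82, 10, 81 and 53. Under median centring Serpina1a and Serpina1c turned to 0.049 and 0.058 in cHF+R against cHF, with all genes at a median of 0.15. Serpinf2 turned to -0.0094 in cHF+PC+R against cHF+R, with all genes at -0.061. The Serpinb9e interaction turned to -0.0068 under median centring, -0.0077 with processed signals and -0.095 with Cy5 alone. Processed signals called 2 in cHF+PC, 2 in cHF+R and 1 in cHF+PC+R against cHF+R. Over all genes they called 1122, 600 and 1334. Cy5 alone called 3 in cHF+PC+R, 1 in cHF+R and 2 in cHF+PC+R against cHF+R. Over all genes it called 765, 293 and 643. The deposited value table called 2 in cHF+PC, 3 in cHF+R, 2 in cHF+PC+R against cHF+R and 1 in cHF+PC+R against cHF+PC. Of its 18897 genes it called 1133, 613, 1439 and 61. In cHF+PC, no background subtraction, the stricter filter, every probe as a feature, and leaving out cHF replicate 4 with cHF+R replicate 6 each called 2. In that order they called 1189 of 19463, 823 of 17489, 918 of 23930 and 675 of 19463 features. The replicate block called 3 in cHF+R, where Serpina1c (adjusted p 0.0625) and Serpinb6b (0.0529) were lost, and in cHF+PC+R it lost Serpina1c (0.0541). Over all genes that block called 584 in cHF+R. The cause of these moves was not tested. Leaving out 1 array at a time gave 4 to 6 calls in cHF+PC+R, 1 to 3 in cHF+PC, 1 to 6 in cHF+R and 1 to 4 in cHF+PC+R against cHF+R. It gave 0 to 0 in the other comparisons. Without cHF+R replicate 1, 1 Serpin gene was called in cHF+R against cHF, with 454 of all genes. In cHF+PC+R against cHF+R it was also 1, with 760 of all genes. Serpina12 in cHF+PC+R against cHF was called in all 12 other settings, with adjusted p from 0.000411 to 0.0122. Signal over background limits Serpinb1c, Serpinb6d, Serpinb9e and, on 3 arrays, Serpina12.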
